A study of Mus musculus with 5 samples.

Results

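Neurog3-positive wells of mouse small intestinal organoids were examined, each well holding 1 sorted cell. Wells were chosen by their own Neurog3 count: of the wells with at least 1000 UMIs (unique molecular identifiers, 1 per captured transcript molecule), those with at least 2 Neurog3 UMIs were kept as Neurog3 wells. They numbered 66 of 971 wells, and the whole series held 1701 such wells in 5 libraries. By genotype they were 20 of 302 WT wells, 17 of 351 Lkb1 +/- wells and 29 of 318 wells of the Lkb1 -/- library labelled Bud. The remaining wells of the 3 libraries were 866 without any Neurog3 UMI, which served as the comparison, and 39 with exactly 1.

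Lkb1 (gene symbol Stk11) is a kinase that switches on AMPK and its relatives. The series asks how its loss changes intestinal organoid cells, and all 3 groups were cultured in the same medium with Egf, R-spondin and Noggin, with no further treatment in the labels. The organoids were dissociated, sorted into 1 plate of 384 wells per library and sequenced from the 3' end by SORT-seq. The labels do not explain "Bud" or the name "Cys" of a second Lkb1 -/- library, nor do they give the way the edit was made, the animals' age, the number of clones or any sort gate beyond single cells, and a 3' tag of Stk11 does not check the genotype. A library of fetal intestinal organoids (WT) and the Cys library were used only as a background for Neurog3.

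Neurog3 is the transcription factor that commits a crypt progenitor to the enteroendocrine lineage. It is switched on briefly, in daughters of stem cells that have escaped Notch signalling, and it in turn activates Insm1, Pax4, Neurod1, Nkx2-2, Rfx6 and other endocrine factors while the cell leaves the cycle. Hormone genes such as Ghrl (ghrelin) and Tac1 (tachykinin) and the peptide-processing enzyme Cpe come later, as the cell builds secretory granules.

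Of the genes looked up, Neurog3 and 2 of its followers, Rfx6 and Fev, had a matched promoter, and their upstream stretches are shown. They are the 250 bases before the RefSeq start (GRCm38.p6), 5′ to 3′ on the gene's strand. Capitals mark CANNTG, the E-box core that basic helix-loop-helix factors such as Neurog3 bind. The Neurog3 stretch lies at chr10:62132840-62133089 on the plus strand. That of Rfx6, a winged-helix factor, lies at chr10:51685268-51685517 on the plus strand. That of Fev, an ETS factor of serotonin cells, lies at chr1:74885409-74885658 on the minus strand. The GENCODE annotation, used for gene positions below, places Rfx6 at chr10:51677756-51730432. The Rfx6 stretch is thus upstream of the RefSeq start but inside the GENCODE gene.
Neurog3: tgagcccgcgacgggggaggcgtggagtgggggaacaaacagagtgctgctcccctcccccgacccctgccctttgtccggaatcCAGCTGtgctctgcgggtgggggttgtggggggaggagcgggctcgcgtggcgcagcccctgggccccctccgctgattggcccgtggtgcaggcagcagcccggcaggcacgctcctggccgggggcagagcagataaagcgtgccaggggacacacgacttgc
Rfx6: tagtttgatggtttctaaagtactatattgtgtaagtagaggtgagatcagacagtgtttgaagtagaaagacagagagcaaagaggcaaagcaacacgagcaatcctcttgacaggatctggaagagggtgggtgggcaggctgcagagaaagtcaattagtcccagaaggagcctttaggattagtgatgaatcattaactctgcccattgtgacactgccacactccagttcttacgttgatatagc
Fev: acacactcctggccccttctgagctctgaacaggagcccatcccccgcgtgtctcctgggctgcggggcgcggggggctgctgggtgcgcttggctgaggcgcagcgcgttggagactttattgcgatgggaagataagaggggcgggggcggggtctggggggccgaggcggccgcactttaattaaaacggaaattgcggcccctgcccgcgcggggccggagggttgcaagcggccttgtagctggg
CANNTG, which reads the same on both strands, occurred 1 time upstream of Neurog3 and 0 times upstream of Rfx6 and Fev, and 66% of 27025 promoters of this length held it. CAGATG, one form of that core searched on both strands, was in none of the 3 and in 14.5% of promoters. CACNAG, the N-box read by Hes repressors and searched on both strands, occurred 1 time upstream of Rfx6, 0 times in the other two and in 36.7% of promoters.

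Neurog3 UMIs per Neurog3 well ran from 2 over a median of 8 to 69 in WT, from 5 over 16 to 119 in Lkb1 +/- and from 2 over 13 to 87 in Lkb1 -/- Bud. Summed over the Neurog3 wells this was 2518, 3531 and 3370 CPM, that is Neurog3 UMIs as a share of all UMIs of these wells, scaled to the usual common total. These wells held 97.6%, 96.7% and 97% of all Neurog3 UMIs of the kept wells, so the transcript was concentrated in few cells in each library. Since Neurog3 chose the wells, these values describe the choice. No fetal well of 371 had a Neurog3 UMI, which allows up to 0.809% of wells with a UMI by a limit of 3 counts and does not limit cells that express the gene, and 3 of 359 Cys wells (0.836%) had a single one. Just inside the limit, 3 WT and 4 Bud wells had exactly 2 UMIs, and Insm1 was seen in 1 and 0 of them and Pax4 in 0 and 1. Just outside it, 8 WT, 15 Lkb1 +/- and 16 Bud wells had 1 UMI, with Insm1 in 3, 0 and 0 and Pax4 in 1, 0 and 1.

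Neurog3 wells made up 6.62% of WT wells (95% exact binomial interval 4.09 to 10), 4.84% of Lkb1 +/- wells (2.85 to 7.64) and 9.12% of Bud wells (6.19 to 12.8). The intervals, which cover counting error only, overlapped between all 3 libraries, and with 1 library per genotype the difference could not be tested. Neurog3 wells were also shallow: their median total was 4762.5 UMIs against 13124.5 in wells without Neurog3 in WT, 5581 against 11573 in Lkb1 +/-, and 3161 against 12640 in Bud. In Bud, 27 of the 29 were below the median of the wells without Neurog3. After every well was thinned to 1000 UMIs the shares were 4.97%, 3.99% and 6.92%, in the same order. Whether cell size, RNA quality or capture set the lower totals was not tested.

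**Figure D1:**
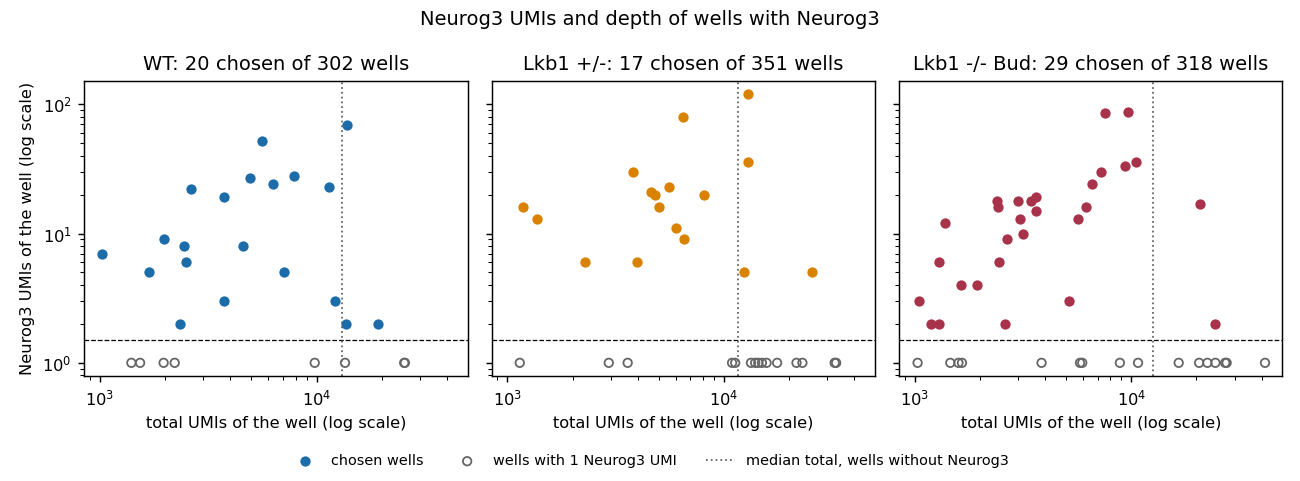
Neurog3 UMIs against total UMIs, both on log scales, 1 panel per library and 1 point per kept well with Neurog3. The legend separates chosen wells from wells with 1 UMI. A dotted line marks the median total of the wells without Neurog3. The chosen wells reach 69, 119 and 87 Neurog3 UMIs and lie mostly at low totals in all 3 panels.

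All later comparisons with wells without Neurog3 used 1 sum of UMIs over the Neurog3 wells and 1 over the wells without Neurog3 in each library, and edgeR's quasi-likelihood test of the difference within libraries, with Benjamini-Hochberg adjustment over all genes and a threshold of 0.05. Neurog3 itself was left out. A change is given as log2 fold with the standard error of the model over n = 3 libraries, which rests on a spread shared across genes and is not the gene's own spread. The 3 libraries differ in genotype, and nothing in the labels says that they came from separate cultures or animals. Of 11240 genes with at least 20 UMIs, 732 were higher in Neurog3 wells (6.51%) and 923 lower (8.21%), with a median change over all genes of -0.167. The number of calls depended strongly on the model: 8 settings of edgeR, limma and DESeq2 called between 701 and 1659 genes, and 298 higher and 116 lower genes were called by all 8. Leaving out Lkb1 +/-, Bud or WT left 1087, 986 and 814 calls, and under edgeR's newer robust method 20, 24 and 2. Genes named below were called by all 8 unless a smaller number is given. In sums of this kind, fewer cells with a transcript and less of it per cell cannot be told apart, so the number of wells is given beside the level.

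Endocrine transcription factors rose together. Of 25 listed, 15 had enough UMIs to be tested, 14 of those were higher in Neurog3 wells and 0 lower, and 9 were called by all 8 settings. The median change of the tested members was 5.98. With every well thinned to 1000 UMIs, which leaves fewer genes with enough UMIs to test, 4 of these factors were called higher. The factors not tested (Neurod1, Pax6, Isl1, Lmx1a and others) had too few UMIs over the 6 sums, which says nothing of their presence in single cells.

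The 3 markers that accompany Neurog3 in the definition of these cells did not all hold in every library. Insm1, a zinc finger repressor at chromosome 2:146221921-146225020 (GRCm38, plus strand), stood at 614 CPM in WT (15 of 20 wells) and 113 CPM in Lkb1 +/- (8 of 17), against 0.784 and 2.72 CPM in wells without Neurog3. The Bud table used here had no Insm1 row, which was read as 0 UMIs in all 29 wells. None of the 5 tables held a row without a UMI, so a gene with 0 UMIs on a plate has no row. A row left out for another reason would look the same. Insm1 rose by 7.17 ± 0.55 (adjusted p = 6.74e-37, edgeR; called by 7 of 8 settings), a value that rests on the other two libraries.

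Pax4, a paired homeodomain repressor of the early endocrine cell (chromosome 6:28442334-28449353, minus strand), was present in all 3 libraries. It had 358 CPM in WT (10 wells), 259 CPM in Lkb1 +/- (7 wells) and 96.7 CPM in Bud (6 wells), against at most 2.72 CPM in wells without Neurog3. The change was 7.47 ± 0.46 (adjusted p = 6.11e-56, edgeR). Every Neurog3 sum lay above every sum without Neurog3.

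Cpe, carboxypeptidase E of the granule (chromosome 8:64592542-64693054, minus strand), had 334 CPM in WT (8 wells) and 324 CPM in Lkb1 +/- (7 wells) but 0 UMIs in Bud, where the whole plate held 1 UMI. It rose by 7.08 ± 0.55 (7 of 8 settings). The WT and Lkb1 +/- wells thus carried Neurog3, Insm1, Pax4 and Cpe, while of the 4 the Bud wells had UMIs of Neurog3 and Pax4. For that reason the wells are called by their rule, Neurog3 wells, and not endocrine progenitors, when Bud is included.

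Among the remaining factors, Neurod2 (427, 146 and 70.9 CPM in WT, Lkb1 +/- and Bud) was seen in 14 of 20 WT wells, and wells without Neurog3 had at most 0.99 CPM. Rfx6 stood at 218, 211 and 116 CPM and was seen in 9, 7 and 9 wells. Nkx2-2, a homeodomain factor, stood at 233, 170 and 51.6 CPM in 11, 8 and 4 wells. These 3 factors rose by 8.57 ± 0.59, 7.83 ± 0.58 and 8.39 ± 0.71, and for all of them the Bud level was the lowest of the 3. Myt1, a zinc finger factor (171, 130 and 38.7 CPM), and Runx1t1, a corepressor (124, 138 and 6.44 CPM), had the same order of WT and Lkb1 +/- above Bud.

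Fev was the second factor missing from Bud: 583 CPM in WT (7 wells; called by 7 settings), 437 CPM in Lkb1 +/- (5 wells) and 0 in Bud, with 1 UMI on that whole plate. Wells without Neurog3 had 5.75 and 8.17 CPM of Fev in WT and Lkb1 +/-. Neurod1, a direct follower of Neurog3, was found at 62.2 CPM in 2 WT wells and at 0 in the Neurog3 wells of the other two libraries. Pax6 and Isl1, like Insm1, Neurod1, Chga and Chgb, had no row in the Bud table and were likewise read as 0, but were also rare in WT, with 8 and 1 UMIs on the whole plate.

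Sox4, an HMG-box factor expressed more widely than the endocrine lineage, behaved differently. It stood at 964, 786 and 1173 CPM in Neurog3 wells against 105, 108 and 111 CPM in wells without Neurog3, and was seen in 17, 13 and 28 wells. The change was 3.06 ± 0.19 (adjusted p = 1.36e-56, edgeR), with Bud the highest rather than the lowest. Foxa2, a forkhead factor, was likewise highest in Bud (101, 97.2 and 187 CPM against 38.4, 34.9 and 33.5), with a change of 1.75 ± 0.32. Against WT, neither Bud level was higher beyond counting error. The ratio of Bud to WT was 1.22 (0.963 to 1.54) for Sox4 and 1.85 (0.932 to 3.88) for Foxa2. Foxa1, a relative of Foxa2, was called by only 2 of 8 settings.

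**Figure D2:**
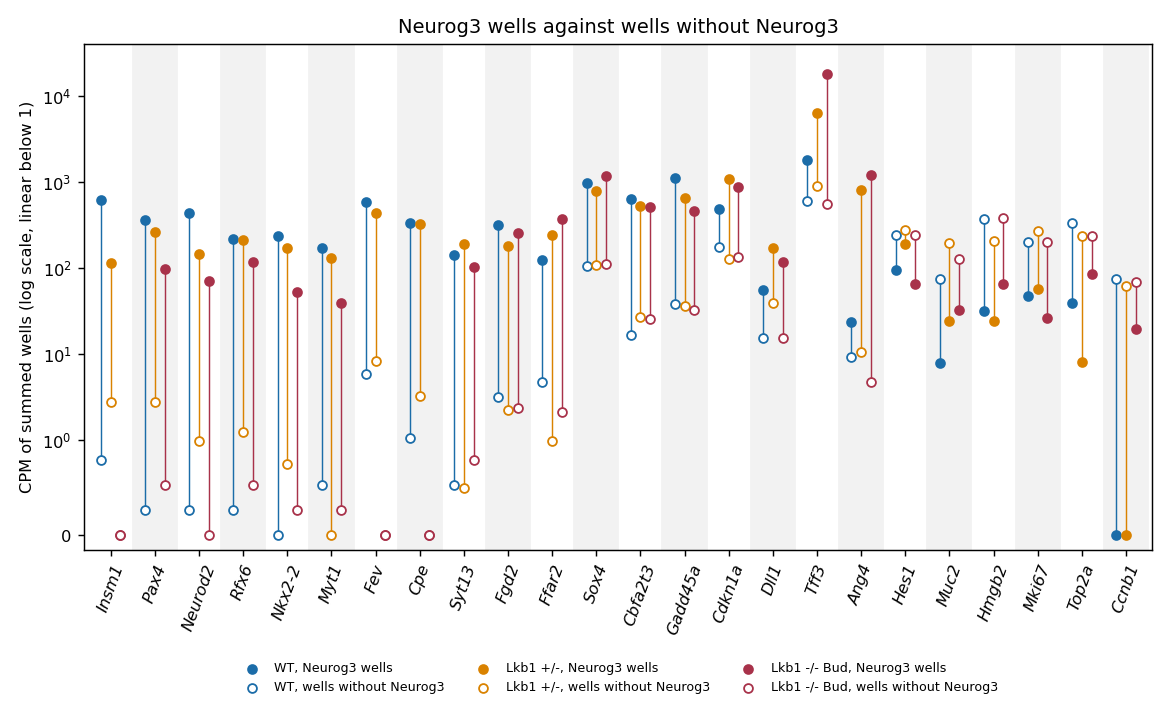
CPM of summed wells on a log scale (linear below 1) for named genes, filled against open symbols for Neurog3 wells and wells without Neurog3, 1 symbol per library. Sox4, Cbfa2t3 and Gadd45a are high in the Neurog3 wells of all 3 libraries, while Insm1 and Cpe are at 0 in Bud.

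Single wells showed how many of these factors a cell carried. Of 24 listed factors other than Sox4, the median Neurog3 well had at least 1 UMI of 5.5 in WT, 5 in Lkb1 +/- and 2 in Bud, and the richest had 13, 13 and 8. At least 3 factors were seen in 13 of 20, 12 of 17 and 10 of 29 wells. The median well without Neurog3 had 1 factor in each library, although it was deeper. Insm1 and Pax4 were found together in 10 WT wells, which is every WT well with Pax4, and in 4 Lkb1 +/- wells. Bud had no Insm1 row, so no Bud well could hold both. Pax4 and Rfx6 shared 8, 5 and 2 wells. Because Bud wells were also the shallowest, the part of depth in the lower number of factors was not tested.

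**Figure D3:**
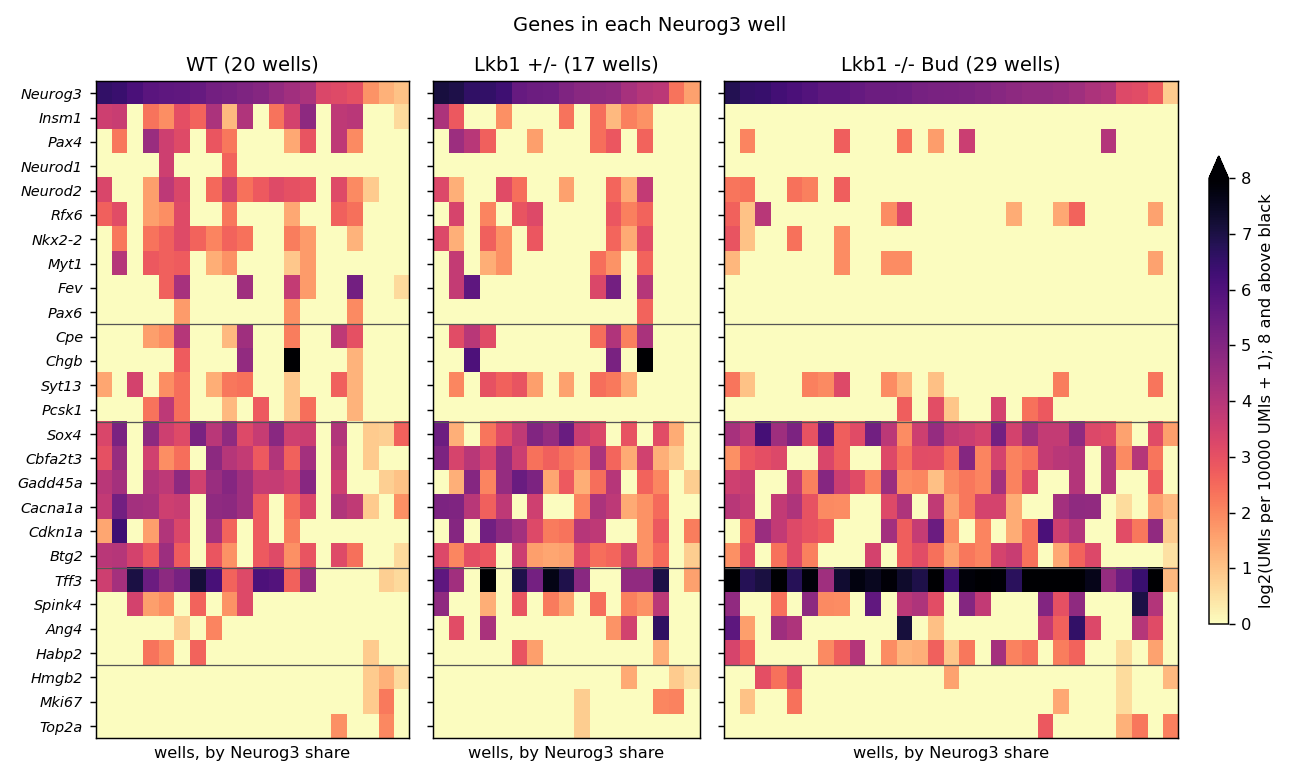
UMIs per 10000 UMIs (colour, log2 with 1 added) of named genes in rows and single Neurog3 wells in columns, sorted by Neurog3 share within each library. Insm1, Fev and Cpe appear in WT and Lkb1 +/- columns and not in the 29 Bud columns, and Tff3 has a UMI in every Bud column.

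Genes of secretory progenitors, the step that endocrine, goblet and Paneth cells share, were higher in Neurog3 wells of all genotypes. Of 17 listed, 16 were tested, 13 were higher and 0 lower, with a median change of 2.30, and 9 were called by all settings. Several of these genes also stand in the Notch and endocrine lists. Cbfa2t3, a corepressor of the ETO family, stood at 622, 518 and 509 CPM in WT, Lkb1 +/- and Bud against 16.7, 26.5 and 25.6, and was found in 14, 16 and 23 wells. It rose by 4.49 ± 0.22 (adjusted p = 3.00e-90, edgeR). Gadd45a, a growth arrest gene, stood at 1103, 640 and 458 CPM against 37.4, 35.6 and 32.4, a change of 4.20 ± 0.21. Rcor2, another corepressor, and Kit, a receptor tyrosine kinase, rose by 2.26 ± 0.24 and 2.35 ± 0.29.

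Of the Notch ligands, receptors and modifiers, 16 of 18 were tested, 3 were higher and 2 lower. The ligand Dll1, which signals to neighbouring cells, was higher (54.4, 170 and 116 CPM in 3, 9 and 11 wells, against 15.4, 39.1 and 15.4), by 2.21 ± 0.36. Dll4 rose by 2.10 ± 0.56 (7 settings) and Mfng, a glycosyltransferase that modifies Notch, was called by 2 settings. Of the Notch targets, 4 of 7 were tested, of which 1 was higher and 2 lower. Hes1, the main repressor of the secretory fate, fell by 1.31 on the log2 scale (SE 0.25; 6 settings), with 93.3, 186 and 64.4 CPM against 239, 278 and 240. Nrarp, a feedback inhibitor of Notch, fell by 2.39 (SE 0.71; 6 settings), and Hes6, an antagonist of Hes1, was higher by 0.85 ± 0.25 but in only 2 settings.

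Granule and exocytosis genes rose as well: of 27 listed, 14 were tested, 12 were higher, 0 lower and 6 were called by all settings, with a median change of 4.68, while 2 were called after thinning to 1000 UMIs. The calcium sensors Syt13 (140, 186 and 103 CPM) and Syt7 (249, 105 and 374 CPM) were detected in all 3 libraries. They rose by 7.62 ± 0.65 and 5.18 ± 0.34. The vesicular monoamine transporter Slc18a1 rose by 3.87 ± 0.47 and the complexin Cplx2 by 4.86 ± 0.52. The granin Chgb had 3295 CPM in WT, but 409 of its 424 UMIs came from 1 well, and it was called by 5 settings; Chga, also a granin, was called by 1.

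Abundant hormone transcripts were found in few wells. Of 18 hormone and transmitter genes 5 were tested and 5 were higher, 1 of them (Sct, secretin) by all settings. A hormone UMI was held by 9 of 20 WT, 9 of 17 Lkb1 +/- and 9 of 29 Bud Neurog3 wells. Most of these wells had at most 2 UMIs of any hormone gene. Ghrl was the most abundant, with 1428 UMIs in Lkb1 +/-, of which 1332 lay in 1 well that also held 119 Neurog3 UMIs, the highest count of all wells. In Bud, 184 of 275 Ghrl UMIs lay in 1 well. The WT table had no Ghrl row, which was likewise read as 0 UMIs. In Lkb1 +/-, 21.9% of the wells without Neurog3 held a Ghrl UMI, at most 3 each, so single Ghrl UMIs there are at background. Tph1, the enzyme of serotonin synthesis, was found in 3 WT wells with 90 UMIs in one of them, in 1 Lkb1 +/- well and in no Bud well.

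Genes of excitability and nutrient sensing were higher in part: 6 of 16 were tested, 4 were higher and 0 lower. Cacna1a, a pore subunit of voltage-gated calcium channels, stood at 940, 551 and 599 CPM against 38.2, 53.2 and 36.9, and was seen in 16, 12 and 21 wells. It rose by 3.91 ± 0.21 (adjusted p = 1.45e-77, edgeR).

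By the size of the change alone, the leading genes included Enpp3, Vwa5b2, Rfx6, Syt13, Pax4, Ptprn2, Nhlh1, Bambi, Fgd2 and Ffar2. Enpp3, an ectonucleotidase, had 62.2, 81 and 103 CPM in 6, 4 and 9 wells, and was at 0 in wells without Neurog3 of WT and Bud, where the levels were at least 79.3-fold and 131-fold higher by a floor of 3 UMIs over the group. Ffar2, a receptor for short-chain fatty acids, was found in 6, 9 and 24 wells (124, 243 and 367 CPM against at most 4.71), with a change of 6.42 ± 0.38. Unlike Insm1 or Fev, neither Enpp3 nor Ffar2 was lowest in Bud.

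Proliferation genes were low in Neurog3 wells of every library. All 16 listed genes of the G2 and M phases were tested: 15 were lower and 0 higher, 10 by all settings, with a median change of -2.56. Hmgb2, a chromatin protein of dividing cells, stood at 31.1, 24.3 and 64.4 CPM against 373, 206 and 383. It fell by 3.07 on the log2 scale (SE 0.30, adjusted p = 3.53e-22, edgeR). Hmgb2 had a UMI in 3, 3 and 6 Neurog3 wells (15%, 17.65% and 20.69%), against 73.7%, 54.2% and 73.3% of the wells without Neurog3. The Neurog3 wells were the shallower ones, and the part of depth in these shares was not tested. Mki67, the Ki-67 antigen, fell by 2.50 (SE 0.31) and Top2a, topoisomerase II alpha, by 2.63 (SE 0.30). Cenpf, a kinetochore protein, and Aurka, a mitotic kinase, had no UMI in any Neurog3 well, which puts Cenpf at least 2.29-fold, 2.39-fold and 2.48-fold lower than in wells without Neurog3 of WT, Lkb1 +/- and Bud.

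S phase genes followed the same direction with smaller changes: 13 of 16 were lower and 0 higher, with a median of -1.22, but only Pcna, the replication clamp, was called by all settings (fell by 1.24, SE 0.19). The count for G2 and M phases was sensitive to the choice of wells. With every well thinned to 1000 UMIs 4 of its genes were called lower, and with wells of 1 Neurog3 UMI added 1 was.

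Cell cycle inhibitors and G1 cyclins were split. Of 14 listed, 13 were tested, 6 were higher and 4 lower. Those higher were inhibitors and antiproliferative genes: Cdkn1a (p21) at 482, 1069 and 864 CPM against 175, 128 and 135, by 2.33 ± 0.19, Gadd45g by 4.71 ± 0.32, Btg2 by 2.39 ± 0.22, and Btg1, Cdkn1c and Gadd45a. Those lower were Ccnd1, Ccnd2, Ccne1 and Cdkn2c, 3 cyclins and 1 inhibitor, each called by 5 or 6 settings. Cdkn1a was seen in 9, 12 and 21 Neurog3 wells and had its lowest level in WT.

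Of 14 listed stem cell genes 13 were tested, 6 were lower and 1 higher, with a median of -0.77, and none of the 6 was called by all settings. Their summed share in the median Neurog3 well was 16.8 per 10000 UMIs in WT and 26 in Bud, against 31.8 and 34.8 in wells without Neurog3, but 23.3 against 22 in Lkb1 +/-. The 6 were Ascl2, Lgr5, Smoc2, Lrig1, Slc12a2 and Cd44. Lgr5, the receptor for R-spondin, stood at 256, 130 and 110 CPM against 281, 302 and 317, and fell by 1.00 (SE 0.23; 4 settings). The gene that rose was Prom1 (404, 761 and 1250 CPM against 254, 268 and 343), by 1.29 ± 0.18.

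Markers of other cell types were measured in the same sums. Goblet markers (14 tested) gave 1 higher and 2 lower gene with a median of -0.02. The higher one was Tff3, trefoil factor 3, with 1772, 6235 and 17890 CPM in Neurog3 wells against 591, 895 and 557, by 3.01 ± 0.18 (6 settings). Muc2, the gel-forming mucin that defines the goblet cell, was low instead (7.77, 24.3 and 32.2 CPM against 73.7, 192 and 127) and fell by 2.66 (SE 0.40). The sum of all 14 goblet markers was 2479, 7572 and 20060 CPM in Neurog3 wells, mostly Tff3, against 1574, 2438 and 1707.

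Of the Paneth markers 8 of 11 were tested, 4 were higher and 0 lower. Lyz1, lysozyme, rose by 1.35 ± 0.22 and Habp2 by 3.62 ± 0.53. Ang4, a Paneth and goblet antimicrobial peptide, was high in Lkb1 +/- and Bud only, at 802 and 1186 CPM in 5 and 12 wells, against 23.3 CPM in 2 WT wells (6 settings). Enterocyte markers gave 8 lower and 2 higher of 15 tested, with a median of -0.84. Well by well the summed list went the other way in WT and Lkb1 +/-: the median Neurog3 well had 24.8 and 26.1 per 10000 UMIs against 13.2 and 15.9, and 17 of 20 and 14 of 17 lay above the median of wells without Neurog3, while Bud had 8.34 against 10.7. Apoa1, an apolipoprotein, fell by 2.95 (SE 0.51), and Apoa4 had no UMI in any Neurog3 well (7 settings). Cdhr5 of the same list went the other way, at 186.5, 299.6 and 225.5 CPM against 60.91, 159.8 and 62.78 in WT, Lkb1 +/- and Bud.

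No Neurog3 well held a UMI of the 10 immune markers. Tuft markers summed to 0, 32.4 and 6.44 CPM, below wells without Neurog3 (26.9, 172 and 9.16), and mesenchymal and endothelial markers to at most 8.10 and 19.3 CPM. Of the 16 tested genes of the LKB1 complex and its kinases, of the 13 CREB and CRTC targets and of the 11 dissociation stress genes, 0 were called in either direction by edgeR or by any other setting. The nuclear transcript Malat1, used here as a sign of well quality, was 4422, 3774 and 7642 CPM against 1219, 1380 and 1163 and rose by 1.91 ± 0.16. Wells with over 2% of UMIs from Kcnq1ot1 made up 0, 0 and 17.2% of Neurog3 wells against 7.3%, 18.5% and 12.8% of the others. The part of these in the results was not tested; without the Kcnq1ot1-rich wells 1633 genes were called (704 higher, 929 lower), with the same counts of 14 endocrine factors, 12 granule genes and 15 G2 and M phase genes.

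**Figure D4:**
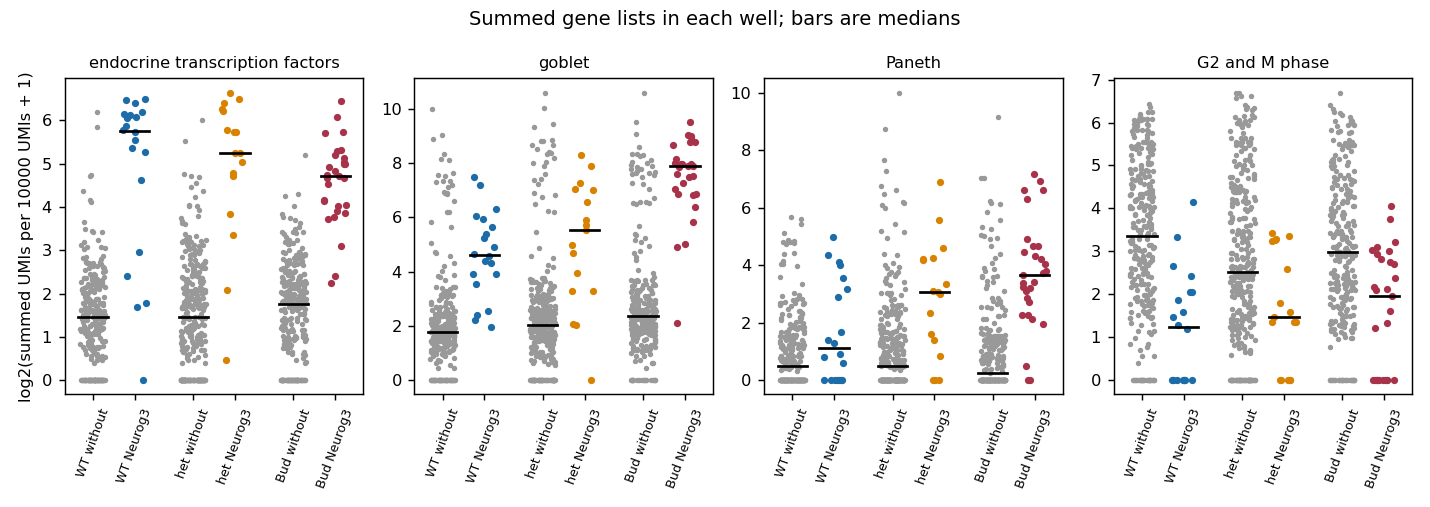
Summed UMIs of gene lists per 10000 UMIs (log2 with 1 added), 1 point per well with bars at the medians, Neurog3 wells beside wells without Neurog3 in each library. Endocrine factors have medians of 53.3, 36.8 and 25.3 in Neurog3 wells, and goblet genes medians of 23.5, 45.5 and 235.

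The next question was whether Neurog3 wells differed between genotypes. With 1 library each, no test was possible: levels of summed Neurog3 wells were compared as ratios with exact intervals that cover counting error only, and a gene was counted as differing where the ratio was at least 1.5 and its interval did not include 1. Genotype, plate and culture cannot be told apart, so genes that also differed in wells without Neurog3 are named as such.

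Between Bud and WT, 5179 genes with at least 10 UMIs were compared, of which 238 were higher in Bud (4.6%) and 448 lower (8.65%). In wells without Neurog3, 59 of the higher (24.8%) and 57 of the lower genes (12.7%) differed in the same direction, where 5.89% and 8.18% of all genes measured in those wells did. Many endocrine factors were lower: 9 of 13 measured were lower in Bud and 1 (Foxa1) higher, with a median log2 ratio of -1.89 against -0.16 over all measured genes and 0.00 for the same factors in wells without Neurog3. The granule genes gave 9 lower of 13 and 0 higher, with a median of -2.16. Some of the 9 rested on a single WT well, which held 100% of the WT UMIs of Vgf, 96.5% of Chgb and 60.4% of Chga. Ddc and Chgb were also lower in wells without Neurog3. Of the 4 transcripts used as signs of well quality 2 were higher in Bud: Kcnq1ot1 at 8113 against 1741 CPM (4.66-fold, and 2.14-fold in wells without Neurog3) and Malat1 by 1.73-fold (0.954 in wells without Neurog3). Their part in the lower endocrine and granule genes was not tested.

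Values for single genes followed that pattern. If its missing row stands for 0 UMIs, Insm1 was at least 31.8-fold lower in Bud than in WT by a floor of 3 UMIs over the group. Fev and Cpe, whose rows were present with 1 UMI each on the plate, were at least 30.2-fold and 17.3-fold lower. In wells without Neurog3, Insm1, Fev and Cpe were at 0 in Bud, against 0.784, 5.75 and 1.05 CPM in WT. By the rule above Fev was lower in those wells too (ratio of at most 0.183). Pax4 was at 0.27 of its WT level (0.14 to 0.493), Neurod2 at 0.166 (0.0783 to 0.32) and Nkx2-2 at 0.221 (0.0876 to 0.494), and each of these was at most 0.523 CPM in wells without Neurog3 of either library. Rfx6 was nearer, at 0.533 (0.278 to 0.998), and Sox4 at 1.22 (0.963 to 1.54) did not differ beyond counting error. Also lower in Bud were Aplp1, a relative of the amyloid precursor (45.1 against 645 CPM), Olfm1, a secreted olfactomedin (6.44 against 389 CPM), Cck, cholecystokinin, and the long noncoding RNA Miat. Ifitm3 was also absent from Bud Neurog3 wells, but had 991 UMIs on the WT plate and 3 on the Bud plate, so its difference was one of the whole plates.

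Goblet and Paneth genes went the other way. Of 8 measured goblet genes 5 were higher in Bud and 0 lower, with a median of 1.85 against 0.51 in wells without Neurog3, and of 5 Paneth genes 5 were higher, with a median of 2.35 against 0.69. Tff3 was 10.1-fold higher in Bud Neurog3 wells than in WT ones (8.82 to 11.6), and at 0.943 in wells without Neurog3. Its share was 14.9 per 10000 UMIs in the median WT Neurog3 well (highest 142), 25.3 in Lkb1 +/- (highest 277) and 194 in Bud (highest 705), so the ranges overlapped. Spink4, a goblet peptide, was 14.5-fold higher (7.17 to 34.3), and 2.26-fold in wells without Neurog3. Ang4 was 50.9-fold higher (17.1 to 249), although a single well held 54.3% of the Bud UMIs, and it was at 0.515 in wells without Neurog3.

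Tff3, a goblet gene, was seen in the same wells as Pax4, Rfx6 and the more widely expressed Sox4. Whether they shared more wells than their separate counts would give was not tested. Tff3 was in all 29 Bud Neurog3 wells, so every gene seen there shared all of its wells with it. That fixed the overlap at 6 wells for Pax4, 9 for Rfx6 and 28 for Sox4. In WT, Tff3 was in 16 of 20 wells and Sox4 in 17, and 15 held both. In Lkb1 +/-, Tff3 was in 12 of 17 wells and Sox4 in 13, and 10 held both. Tff3 was also in 8 of 10 WT and 4 of 7 Lkb1 +/- wells with Pax4, no larger a share than in all Neurog3 wells of these libraries. Of the wells without Neurog3, 42%, 48% and 60.4% held a Tff3 UMI in WT, Lkb1 +/- and Bud, but the median such well had 0, 0 and 1 UMI, against 6, 13 and 69 in Neurog3 wells. Tff3 was thus above the background of each plate in the median Neurog3 well of all 3 libraries.

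Other genes higher in Bud by the naming rule were Cxcl13, Fam46a, Erdr1, Alb, Scn2b, R3hdml and Slc15a2. Cxcl13, a chemokine that attracts B cells, was found in 13 of 29 Bud wells (367 CPM) and in none of the WT or Lkb1 +/- Neurog3 wells, at least 15.8-fold higher than in WT, while wells without Neurog3 held 1.05 CPM of it in Bud. It shared 5 of its 13 wells with Pax4. Scn2b and R3hdml were also higher in Bud wells without Neurog3, by 2.95-fold and 7.2-fold, and so was Slc15a2, at 14.1 CPM against 0. Fam46a was 26.5-fold higher (7.05 to 224) and 2.71-fold in wells without Neurog3. Erdr1 was 36.5-fold higher (6.22 to 1473) but also 63.2-fold in wells without Neurog3.

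**Figure D5:**
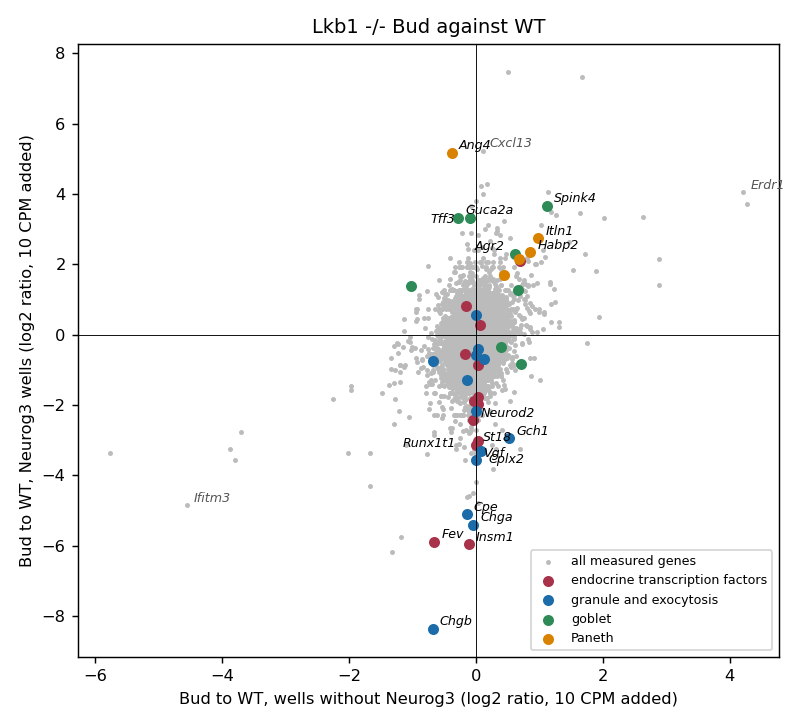
Log2 ratio of Bud to WT (10 CPM added to both) in Neurog3 wells on the vertical axis and in wells without Neurog3 on the horizontal axis, 1 point per measured gene. Insm1 and Cpe lie low and Cxcl13 and Tff3 high near 0 on the horizontal axis. Fev lies low at -0.655 on the horizontal axis, and Ifitm3 and Erdr1 lie away from 0 on both axes.

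Lkb1 +/- Neurog3 wells were compared with WT in the same way over 5019 genes, of which 310 were higher (6.18%) and 308 lower (6.14%). Wells without Neurog3 shared 71 (22.9%) and 79 (25.6%) of these, where 8.69% and 8.37% of all genes measured in them were higher and lower. The endocrine factors were divided, with 2 higher and 2 lower of 17 measured and a median of -0.29, while of 13 granule genes 7 were lower and 0 higher. Pcsk1, a prohormone convertase, was seen in 8 WT wells and no Lkb1 +/- well, at least 6.08-fold lower. Of 6 goblet genes 4 were higher and of 6 Paneth genes 4, as in Bud, and 6 of 12 enterocyte genes were higher. By size alone the higher genes were Zfp217, Ctsc, Sgpp2, Dusp10, C1galt1c1, Erdr1, Inpp5b and Smc6, each with at most 2 UMIs in WT and a wide interval (Zfp217 15.6-fold, 2.41 to 658). Erdr1 and C1galt1c1 were also higher in wells without Neurog3, by 43.3-fold and 1.58-fold. Lower were Ifitm3, Miat, Dbn1, Pcsk1, Trim44, Mad2l2, Fbxo44 and Ldb3, of which Ifitm3, Trim44, Mad2l2 and Fbxo44 were also lower in wells without Neurog3.

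Bud against Lkb1 +/- gave 253 higher (4.94%) and 536 lower genes (10.5%) of 5124, and wells without Neurog3 shared 77 (30.4%) and 183 (34.1%), where 8.6% and 11.8% of all genes measured in them were called. These 3 comparisons share libraries and are not independent of one another. Of 14 endocrine factors 7 were lower in Bud and 0 higher, with a median of -1.28. Of 12 enterocyte genes 11 were lower and 0 higher, with a median of -3.31 against -1.95 in wells without Neurog3. Sis, the brush border sucrase-isomaltase, was 137-fold lower in Bud (12.9 against 1765 CPM) and at 0.163 in wells without Neurog3. Higher in Bud were Cxcl13, Sgsm1, Clu, Clps, Upk3bl, Trim44, Smim3 and Aga, of which Trim44 (10.6-fold), Sgsm1 (3.38-fold), Clps and Smim3 (1.75-fold) were also higher in wells without Neurog3. Clps, the colipase, was in 27 of 29 Bud wells (2114 CPM), 10.4-fold above Lkb1 +/- (6.95 to 16.4) and 1.9-fold in wells without Neurog3. Clu, clusterin, was found in 10 Bud wells and no Lkb1 +/- well. Lower besides Sis were Cpe, Clic6, Insm1, Fbxl5, Nr2f1, Tmem173 and Actr1b, and Sis, Cpe, Clic6, Insm1, Nr2f1 and Tmem173 were also lower in wells without Neurog3. Clic6, like Insm1, had no row in the Bud table.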

How the data were processed

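The authors deposited per-plate tables of UMI counts (genes by wells) and tables of estimated counts, whose values lie slightly above whole numbers in the way a correction for identifiers drawn more than once would leave them. The submitters' processing notes name the GRCm38 build and the tools featureCounts 1.5.2, STAR 2.6.1 and Seurat 4.1.0. How strand and reads with several matches were handled is not recorded in the labels or file headers. Overlapping, antisense and near-identical genes may share reads. The deposited UMI counts were used throughout and the deposited estimated counts, rounded to whole numbers, as an alternative. Rows of ERCC spike-ins were dropped and wells with at least 1000 UMIs kept. The kept wells of WT, Lkb1 +/- and Lkb1 -/- Bud held 4035219, 4395349 and 4199196 UMIs, and the Neurog3 wells 128682, 123489 and 155186. The names of the 384 barcodes are plate positions and occur in all tables; 2 names of Neurog3 wells occur in 2 libraries. Doublets were not called, since each well received 1 sorted cell. Sex, age and batch are not in the labels.

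The members, gene lists and tests were chosen with earlier results of these data known. Sums of UMIs were tested with edgeR 4.0.16 (quasi-likelihood, default settings, TMM scaling, library as block) in R 4.3.3; the standard error is the log2 fold divided by the root of the F statistic. After the calls of this fit had been seen, further settings were added: robust quasi-dispersions, edgeR's newer quasi-likelihood method with and without them, and limma 3.58.1 in 3 forms. With DESeq2 1.42.0, planned from the start, and the fit itself, these make 8 settings. Under the default the prior degrees of freedom were infinite, so each gene's own spread between libraries had little weight and very small p-values occur even where 1 well holds most UMIs. On simulated data with 11240 genes, 23% of 2-fold and 89% of 4-fold changes were recovered, with 4 false calls. Every simulated gene had the same dispersion (0.0296), which is what the default fit assumes. Genes with a spread of their own were not simulated, so these values do not give the rate of false calls in the real data.

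Intervals are exact (Clopper-Pearson for shares, conditional binomial for ratios) at 95% and cover counting error only. Named genes are Neurog3, Insm1, Pax4 and Cpe, the 12 largest called changes in each direction that had the same sign in all 3 libraries and were seen in 20% or more of the wells of the higher group, and up to 5 per list with at least 20 CPM. Between libraries they are the 8 largest ratios in each direction seen in 25% or more of the higher library's wells and no single well holding the majority of them (ribosomal protein, Gm and Rik genes left out). Some genes that this rule or the lists hold are not reported here. Further list members are given as examples and were chosen after their values were seen. Scripts used Python 3.11.15, pandas 2.3.3, numpy 2.4.6, scipy 1.17.1 and matplotlib 3.10.9. Gene positions are from GENCODE vM21 and promoters from RefSeq, which matched 3 of the 6 genes looked up.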

Additional observations from a re-analysis of the deposited data

Results flagged for a closer look

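For 4 genes the ratio of Neurog3 wells to wells without Neurog3 had opposite directions in 2 libraries, each beyond counting error; the difference between libraries was not tested. Sis, the sucrase-isomaltase of enterocytes, stood at a ratio of 0.0942 in Bud (0.0114 to 0.342) but 3.82 in WT and 2.11 in Lkb1 +/-. Spink4, a goblet peptide, stood at 0.469 in WT (0.201 to 0.931) and 3.01 in Bud (2.5 to 3.59). Kcnq1ot1, a long noncoding RNA, stood at 0.338 in Lkb1 +/- (0.296 to 0.384) and 1.58 in Bud (1.5 to 1.68). Actr1b, a dynactin subunit, stood at 0 in Bud (upper bound 0.622) and 2.09 in Lkb1 +/- (1.03 to 3.84).

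Wells under 1000 UMIs, which enter no comparison, also held Neurog3. It was found in 4 of 82 such wells in WT, 3 of 33 in Lkb1 +/- and 8 of 66 in Bud, with 18, 9 and 24 UMIs in all. None of the 13 fetal and 25 Cys wells under that minimum held a Neurog3 UMI.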

How the results depend on the processing

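Of the counts and shares computed again under the alternatives, 123 values kept within 1.5 times or 1 interval of those given above and 63 did not. Between genotypes, no paired analysis was possible because each had 1 library. Wells with and without Neurog3 were compared within libraries, and without the library block 749 genes were called, 432 higher and 317 lower. DESeq2 called 701 genes, 205 of them lower, and edgeR's newer quasi-likelihood method 546 lower. limma on log2 CPM called 874 genes (326 higher, 548 lower, with 9 endocrine factors and 6 granule genes), limma voom 746 and, with sample weights, 750, with 250 lower in both. Among genes with at least 100 UMIs 541 were lower and 7 endocrine factors were called. With wells of 1 Neurog3 UMI added there were 400 calls (336 higher, 64 lower, 1 of them a G2 and M phase gene). With every well thinned to 1000 UMIs there were 351 (113 higher, 238 lower), with 4 endocrine factors, 2 granule genes and 4 G2 and M phase genes. Neurog3 wells were the shallower ones, so low genes in them are limited by depth.

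Leaving out 1 library gave 814 to 1087 calls, 433 to 521 higher genes and 381 to 566 lower ones. Under the newer method with robust dispersions it gave 2, 20 or 24 calls, all of them higher and 0 lower, with 0 to 5 endocrine factors, 0 to 3 granule genes and 0 G2 and M phase genes. The direction turned for Kcnq1ot1, whose log2 fold ran from -1.137 without Bud to 0.077 without Lkb1 +/- (by either method) and was 0.834 without wells rich in it. It turned for Clu, from 2.728 without Lkb1 +/- to -1.548 without Bud (by either method) and by limma on log2 CPM (-0.077), and for Reg3g (1.375) and Emp1 (0.013) with wells of 1 Neurog3 UMI added. Of the other values of named genes in the model, 2038 kept their direction and side of the threshold, 454 lost and 7 gained the call. The cause was not tested for any of these.

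The share of Neurog3 wells became 3.98% in WT and 5.34% in Bud after thinning to 3000 UMIs, 6.11% in Bud among wells of at least 3000 UMIs, and 9.12% in Lkb1 +/- and 14.2% in Bud with wells of 1 UMI added. Between libraries, a minimum of 50 UMIs left 203 genes for Bud against WT, 195 for Lkb1 +/- against WT and 247 for Bud against Lkb1 +/-, and wells of 1 UMI added gave 1166 and 1423 in the latter comparisons. The block, DESeq2, wells of 1 UMI and both minimums were planned; the thinning to 1000 UMIs, limma and the newer method were added after the data had been seen.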
